A study of Mus musculus with 6 samples.

Results

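The cells described here were those richest in messenger RNA of the fast sarcomere, taken from single-cell RNA sequencing of mouse tibialis anterior muscle (TAM), a fast muscle of the front of the shin. The cells were selected on their measured RNA: a cell was taken when the 8 transcripts *Acta1*, *Ckm*, *Tnnt3*, *Tnnc2*, *Tnni2*, *Mylpf*, *Myl1* and *Pvalb* together made up more than 100000 CPM (counts scaled to a fixed total per cell), that is 10% of its unique molecular identifiers (UMIs, each standing for 1 captured RNA molecule). Of 11207 cells, 299 (2.67%) met this rule. All mice were male, 3 to 5 months old and were B6;129 mice with the cell cycle reporter allele tm1(Fucci2aR)Jkn at the Gt(ROSA)26Sor locus, without the *Pax7*-Cre that would switch it on. Hypothyroid mice ate an iodine-deficient diet with 0.15% (w/w) propylthiouracil, a drug that blocks thyroid hormone synthesis. Control mice ate the matched diet without it. After 3 weeks of diet the right TAM was injected with 50 µg/ml cardiotoxin, a snake venom peptide that destroys fibers and sets off regeneration, and muscle was taken before injury and at 5 and 14 days post injury (dpi). Each of the 6 groups was 1 library made from 3 mice pooled, so no difference between groups could be set against the spread between mice, and no test was run. Intervals below are exact 95% intervals that cover counting error only.

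A muscle fiber is a long multinucleated cell formed by fusion of myoblasts, and it is filled with sarcomeres in which myosin filaments pull on thin filaments of skeletal actin. Mouse fibers are typed by their myosin heavy chain gene: *Myh4* (type IIB) in the fastest and most glycolytic fibers, *Myh1* (IIX) and *Myh2* (IIA) in fast fibers with more mitochondria, *Myh7* (type I) in slow fibers, and *Myh3* and *Myh8* in embryonic and neonatal fibers and again during regeneration. Thyroid hormone is known to favor fast over slow fiber genes. *Myh7* was not analysed here, nor were the slow light chains *Myl2* and *Myl3*.

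Several limits of the data come before the results. In 5 of the 6 deposited tables the columns formed more than 1 run of cells, and in the control and hypothyroid uninjured tables the later run repeated columns of another table. The source of the other later runs could not be checked. Run 2 of the hypothyroid 5 dpi table had 528 columns and run 2 of the control 14 dpi table had 1152. These are the column counts of the hypothyroid and control uninjured first runs, but none of the columns was repeated from them. Only the first run of each table was used, and whether that run belongs to its label could not be checked. About 5000 cells were captured per library, the first runs held 528 to 3294, and 7248 of all 11207 lay within the limits the study states of at most 8000 UMIs and at least 500 genes per cell. Each first run held fewer cells than the study reports for that sample, so only a part of the cells it analysed was used here. Of the 299 sarcomere-rich cells, 26 had over 8000 UMIs and 93 had under 500 of the genes listed. None of their barcodes was repeated among them, and 2 were also found in the first run of another library. The pooled UMIs of the sarcomere-rich cells were 177879 in the control uninjured library, 156528 in hypothyroid uninjured, 34327 in control 5 dpi, 4135 in hypothyroid 5 dpi, 524484 in control 14 dpi and 62302 in hypothyroid 14 dpi. Their median UMIs per cell ran from 777 to 2350.5 and those of the other cells from 3850 to 8077.5. The deepest cell held 21.9%, 7.23%, 28.4%, 32.1%, 3.56% and 30.8% of the pool in that order of libraries, so values from hypothyroid 14 dpi, with 16 cells, and from both 5 dpi libraries, with 9 and 5 cells, could rest on 1 cell.

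The 5 transcripts that mark these cells as myocytes, *Acta1*, *Ckm*, *Tnnt3*, *Mylpf* and *Pvalb*, were present in all 6 pools, which the rule ensures since they are among its 8. Fast-fiber genes that the rule did not use were present as well. *Atp2a1*, the fast calcium pump of the sarcoplasmic reticulum, ranged from 2660.2 to 4843 CPM over the 6 pools. *Pax7*, which marks muscle stem cells, had 0 or 1 UMI in each. A panel of 45 markers covered 8 other cell classes (fibro-adipogenic, endothelial, mural, myeloid, lymphoid, glial, tendon and erythroid). Muscle stem cell markers were not part of it. The panel made up a median of 0.0434% to 0.156% of a cell's UMIs in 5 libraries and 0.935% in control 14 dpi. Over 1% was reached by 72 of 150 cells in control 14 dpi, 4 of 71 in hypothyroid uninjured, 2 of 48 in control uninjured, 1 of 5 in hypothyroid 5 dpi, 1 of 16 in hypothyroid 14 dpi and 0 of 9 in control 5 dpi. Fibro-adipogenic markers, which include *Dcn* and the fibrillar collagens, were 1.41% of the control 14 dpi pool and 0.0146% to 0.218% of the other 5. The control 14 dpi library therefore held RNA of fibro-adipogenic cells beside that of fibers, and for named genes whose 14 dpi value or 2-fold call depended on the cells over 1% the value without those cells is given beside it.

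The abundance of sarcomere-rich cells differed between diets in opposite directions before and after injury. In uninjured muscle they were 48 of 1152 cells on the control diet (4.17%, 3.09 to 5.49) and 71 of 528 on the hypothyroid diet (13.4%, 10.7 to 16.7), a ratio of 3.23 (2.21 to 4.76). At 5 dpi they were scarce on both diets, 9 of 2428 (0.371%, 0.170 to 0.702) in control and 5 of 2155 (0.232%, 0.0754 to 0.541) in hypothyroid muscle, and the interval of the ratio, 0.165 to 2.08, included 1. At 14 dpi they were 150 of 3294 on the control diet (4.55%, 3.87 to 5.32) and 16 of 1650 on the hypothyroid diet (0.970%, 0.555 to 1.57), a ratio of 0.213 (0.119 to 0.357). The control shares before injury and at 14 dpi were thus alike at this line, and the hypothyroid share at 14 dpi was below its own uninjured share. The likeness of the control shares depended on the choice of cells: without cells over 1% in other-cell markers they were 3.99% and 2.37%, and with the line at 50000 CPM they were 5.21% and 12.3%. The suspension was made by enzyme digestion and passed through meshes, so these shares describe the cells that were captured. Fewer such cells in the muscle and fewer captured ones cannot be told apart. In cells outside the rule the median level of the 8 transcripts differed in the same directions. It was 2282 CPM in control and 8857 in hypothyroid uninjured muscle, 780.4 and 129 at 5 dpi, and 9678 and 2128 at 14 dpi. The diet difference was thus not particular to cells above the line. Whether this library-wide level moved cells over the line was not tested.

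**Figure D1:**
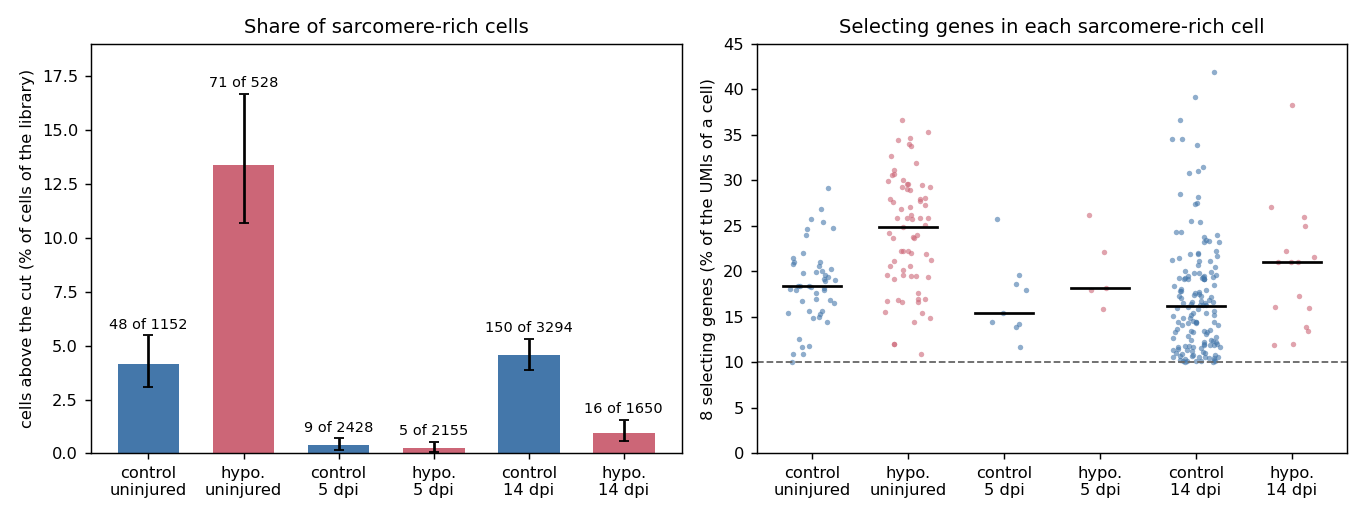
Left, share of cells above 100000 CPM in the 8 selecting transcripts in percent of the cells of each library, with exact 95% intervals and the counts; right, percent of UMIs in those 8 transcripts in each sarcomere-rich cell, with the line at 10% and the median in black. The share is highest in hypothyroid uninjured muscle (13.4%) and lowest at 5 dpi, and control 14 dpi cells crowd near the line while hypothyroid uninjured cells lie well above it.

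The control 14 dpi cells lay close to the selecting line. Medians of the 8 transcripts' share per cell were 18.4%, 24.9%, 15.5%, 18.2%, 16.2% and 21.0% in the order of libraries given above. In control 14 dpi 38 cells lay between 100000 and 120000 CPM and 46 lay just outside, between 80000 and 100000. The highest cell left out there had 97248 CPM and the lowest taken in had 100696. In hypothyroid uninjured muscle the corresponding pair was 94257 and 109204. Below the line, 256 control 14 dpi cells held between 50000 and 100000 CPM, against 16 in hypothyroid 14 dpi. With the line at 200000 CPM the ratio of shares was 7.42 in uninjured muscle and 0.513 at 14 dpi (0.217 to 1.09), so the 14 dpi difference was not detectable at the stricter line. Without cells over 1% in other-cell markers it was 3.18 and 0.384.

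The makeup of the 8 selecting transcripts differed between libraries. These values belong to the rule and are given as a description. *Acta1*, which encodes the skeletal actin of the thin filament, was 23.4% of their UMIs in control uninjured, 32.8% in hypothyroid uninjured, 22.9% in control 5 dpi, 30.4% in hypothyroid 5 dpi, 16.9% in control 14 dpi and 32.7% in hypothyroid 14 dpi. All 3 hypothyroid libraries were above all 3 control libraries. *Pvalb*, a calcium buffer that speeds relaxation of the fastest fibers, was 5.82%, 3.92%, 8.97%, 0.73%, 6.22% and 1.95% in the same order, with the hypothyroid libraries below the control ones. The same order held in cells that did not pass the rule, where *Acta1* was 22.7%, 32.3%, 25.5%, 27.3%, 17.8% and 28.0% of the 8 transcripts and *Pvalb* was 3.50%, 1.43% and 2.71% in the hypothyroid libraries against 5.76% to 8.51% in the control libraries. Those cells held the 8 transcripts at medians of 129 to 9678 CPM, and whether that RNA came from inside these cells or from the suspension was not tested.

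Sarcomere-rich cells were typed by which of *Myh1*, *Myh2*, *Myh4*, *Myh3* and *Myh8* had most UMIs. Slow *Myh7* was not among these and the rule selects on fast-fiber transcripts, so no cell could be typed as slow. *Myh4* was the myosin heavy chain gene with most UMIs in 43 of 48 control uninjured cells (89.6%, 77.3 to 96.5), 54 of 71 hypothyroid uninjured cells (76.1%, 64.5 to 85.4), 9 of 9 and 4 of 5 cells at 5 dpi, and 105 of 150 control 14 dpi cells (70.0%, 62.0 to 77.2). In hypothyroid 14 dpi it led in 6 of 16 cells (37.5%, 15.2 to 64.6), as many as *Myh1*. *Myh1* led in 2, 6, 0, 0, 15 and 6 cells in the order of libraries. *Myh2* led in 2 hypothyroid uninjured and 2 hypothyroid 14 dpi cells and in none of the control cells. Neonatal *Myh8* led in 2 hypothyroid 14 dpi cells and in none elsewhere. Embryonic *Myh3* led in no cell and had 1 UMI in control 5 dpi and 1 in hypothyroid 14 dpi. The 29 control 14 dpi cells with no myosin UMI were shallow, at a median of 580 UMIs.

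**Figure D2:**
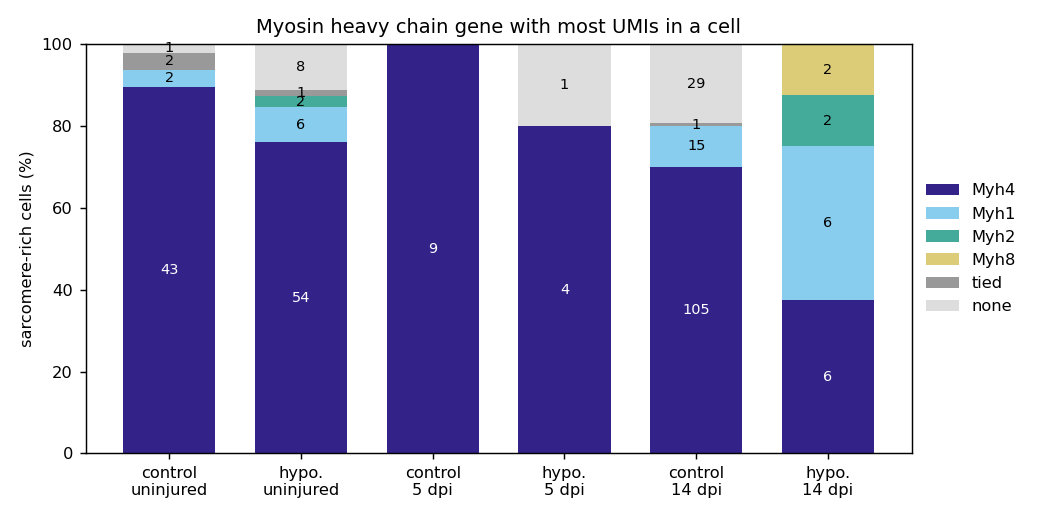
Percent of sarcomere-rich cells in each library by the myosin heavy chain gene with most UMIs, as stacked bars with tied and untyped cells shown. *Myh4* leads in most cells of 5 libraries, and in hypothyroid 14 dpi it leads in 37.5%, beside *Myh1*, *Myh2* and *Myh8* cells.

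Summed over cells, *Myh4* took 94.6%, 89.1%, 93.8%, 100%, 89.9% and 55.9% of myosin UMIs in the order of libraries, uncorrected for transcript length. *Myh1* took 5.43%, 10.2%, 5.21%, 0%, 10.0% and 38.6%. The hypothyroid 14 dpi values rested on 2 cells that pulled in opposite directions. Without the cell that held 105 of the 181 *Myh4* UMIs, *Myh4* took 34.9% and *Myh1* 57.3%, and without the cell that held 91 of the 125 *Myh1* UMIs, they took 77.2% and 14.9%. As levels, *Myh4* was at 4306, 2409, 2622, 2177, 4667 and 2905 CPM. Its hypothyroid to control ratio was 0.559 (0.493 to 0.634) in uninjured muscle and 0.622 (0.532 to 0.724) at 14 dpi. The 14 dpi ratio was 0.292 (0.229 to 0.367) without the cell with most *Myh4* UMIs in each pool, 0.430 (0.367 to 0.501) without cells over 1% in other-cell markers, and above 1, at 1.31 (1.06 to 1.60), with cells thinned to 500 UMIs. The direction of *Myh4* at 14 dpi thus depended on how single cells were weighted. *Myh1* was at 247, 275, 146, 0, 521 and 2006 CPM. Its ratio was 1.11 (0.712 to 1.73) in uninjured muscle and 3.85 (3.09 to 4.78) at 14 dpi, where it was 1.45 (0.979 to 2.09) once the cell with most *Myh1* UMIs was left out of each pool and 2.34 (1.86 to 2.92) without cells over 1% in other-cell markers. A higher *Myh1* level at 14 dpi was therefore carried mainly by 1 hypothyroid cell.

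The genes *Myh1* and *Myh4* lie next to each other in the files' mm39 coordinates, at chr11:67090878-67115401 and chr11:67128855-67151272. *Acta1* lies at chr8:124618508-124621490. The 250 bases before the RefSeq start of the 3 genes are shown because these are the actin and the myosins by which the cells were described, *Acta1* being expressed in all skeletal fiber types and *Myh4* and *Myh1* in fast ones. They are read from the GRCm38.p6 build at chr8:123894776-123895025 (minus strand), chr11:67237562-67237811 (plus strand) and chr11:67199852-67200101 (plus strand), and capitals mark matches to the CArG box, bound by serum response factor, and to the MEF2 site.
Acta1: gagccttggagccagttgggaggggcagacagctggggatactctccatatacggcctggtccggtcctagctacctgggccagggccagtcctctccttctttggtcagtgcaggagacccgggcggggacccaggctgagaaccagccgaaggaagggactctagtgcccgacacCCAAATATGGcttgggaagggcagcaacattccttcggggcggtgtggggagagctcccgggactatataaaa
Myh4: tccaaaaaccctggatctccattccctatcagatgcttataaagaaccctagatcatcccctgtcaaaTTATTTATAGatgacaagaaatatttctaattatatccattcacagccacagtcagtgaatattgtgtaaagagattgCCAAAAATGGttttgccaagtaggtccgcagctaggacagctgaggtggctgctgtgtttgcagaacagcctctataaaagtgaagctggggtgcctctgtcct
Myh1: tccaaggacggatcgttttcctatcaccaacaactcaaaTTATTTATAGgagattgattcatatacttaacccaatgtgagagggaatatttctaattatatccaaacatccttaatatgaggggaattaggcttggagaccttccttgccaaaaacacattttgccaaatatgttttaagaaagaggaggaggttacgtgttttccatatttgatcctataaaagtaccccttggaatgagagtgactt
The capitals in *Acta1* are 1 CArG box that begins 73 bases before the start. Those in *Myh4* are a MEF2 site at 182 and a CArG box at 104 bases before it, and those in *Myh1* are a MEF2 site at 211. A CArG box, sought on both strands, was in 1.63% of 32851 RefSeq promoter windows of 300 bases and a MEF2 site in 3.19%. Of 118 listed genes with a window, which include thyroid hormone and immediate early genes, 7 held the first and 12 the second in any of their windows. The percentages are per window and the counts per gene, so they are not the same measure. The sequence AGGTCA, the core half-site that thyroid hormone receptors bind, was sought on both strands as well and was in 16.3% of all windows, in 21 of the 118 and in none of the 3 shown. These matches describe letters in a window and not bound sites.

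In uninjured muscle, the sarcomere-rich cells of hypothyroid mice had more RNA of the slow fiber genes *Csrp3* and *Myoz2* and of triadin. They had less of *Amd1* and of the metallothionein genes *Mt1* and *Mt2*. The *Mt2* difference was not detectable without the cell with most *Mt2* UMIs in each pool. Fast-fiber genes went both ways, *Actn3* and *Myoz1* being higher and *Myh4* and *Mylk2* lower. Among 980 genes with enough UMIs (at least 20 expected in the smaller pool), 24 (2.45%) were at least 2-fold higher in hypothyroid cells and 75 (7.65%) at least 2-fold lower, with a median ratio of 0.920. Of the listed slow fiber genes 3 could be compared, 2 were at least 2-fold higher and none lower, and their median ratio was 11.4, which is that of *Myoz2*. The member that went the other way was *Mybpc1*, slow myosin-binding protein C, at 0.532 (0.330 to 0.839). Summed over 7 slow fiber genes there were 75 UMIs in control and 212 in hypothyroid cells, of which *Csrp3* gave 0 and 132 and *Myoz2* 4 and 40. The higher sum was thus carried by *Csrp3* and *Myoz2* and not by the rest of the list.

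*Csrp3* had the interval farthest above 1. It encodes muscle LIM protein of the Z disc, lies at chr7:48480146-48497781 in mm39 and is more abundant in slow than in fast fibers. Its level was 0 CPM in control uninjured, 843 in hypothyroid uninjured, 466 in control 5 dpi, 1693 in hypothyroid 5 dpi, 26.7 in control 14 dpi and 80.3 in hypothyroid 14 dpi. It was thus undetected only in control uninjured cells. The 132 UMIs of hypothyroid uninjured muscle came from 12 of 71 cells, and the level was at least 50.0-fold above what 3 UMIs in the control pool would be. Without the cell with most *Csrp3* UMIs it was still at least 37.5-fold higher. With the line at 200000 CPM the bound was 26.0-fold, and with cells thinned to 500 UMIs it was 7.21-fold. In cells outside the rule *Csrp3* was also higher in hypothyroid uninjured muscle, with a ratio of 38.5, so the difference was not particular to sarcomere-rich cells.

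*Myoz2*, a slow-fiber calsarcin that tethers calcineurin to the Z disc, was at 22.5, 256, 233, 726, 30.5 and 594 CPM in the order of libraries. The uninjured ratio was 11.4 (4.11 to 43.7), and 11.5 in cells outside the rule. It rested on 40 and 4 UMIs. It was 25.8 (4.22 to 1058) without the top cell of each pool, 3.72 (0.812 to 34.5) with cells thinned to 500 UMIs and 2.30 (1.41 to 3.84) with all columns of each table, which include cells of unknown condition. In hypothyroid 14 dpi 22 of the 37 *Myoz2* UMIs came from 1 cell. *Ankrd2*, a stretch-responsive titin partner of slow fibers that is named here after its values were seen, was at 11.2, 243, 0, 0, 22.9 and 32.1 CPM and had too few UMIs for the count above, with 2 in control and 38 in hypothyroid uninjured cells. These transcripts overlapped in the same cells: of the 12 hypothyroid uninjured cells with *Csrp3*, 9 had *Ankrd2*, 7 had *Myoz2* and 4 had *Sln*, and only 11, 9 and 5 of the 71 cells had those transcripts at all. The cells with *Csrp3* were somewhat deeper, at a median of 2157.5 UMIs against 1517.

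Transcripts of the contractile apparatus and Z disc went both ways. *Acta1* was 1.77 times the control level and 4.15 times in the other cells, a value the rule constrains. *Actn3*, the alpha-actinin of fast Z discs, was at 3278 CPM in control and 5724 in hypothyroid uninjured cells, and *Myoz1*, its fast calsarcin partner, at 3272 and 5111. *Des*, the intermediate filament desmin, was 1.65 (1.46 to 1.87) times higher and *Tcap*, a cap of titin, was at 3991 and 5941 CPM. Of the 9 Z disc and scaffold genes compared 5 lay above 1, 4 of them with their interval, and 2 had their interval below 1. None reached 2-fold, and the median ratio was 1.02. *Tuba4a*, a tubulin, was 2.65 (2.13 to 3.31) times higher and *Ptp4a3*, a phosphatase, 2.08 times (1.76 without the top cells), and both were higher in the other cells as well (3.13 and 2.01).

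Calcium handling genes split. *Trdn*, which encodes the triadin that holds calsequestrin to the release channel, was at 439 CPM in control and 952 in hypothyroid uninjured cells, a ratio of 2.17 (1.64 to 2.89) that was 1.89 without the top cells, and *Srl*, the reticulum protein sarcalumenin, had a ratio of 2.03 (1.25 to 3.35), which was 1.67 without the deepest cells. In contrast *Casq1*, the fast calsequestrin, was 0.459 (0.255 to 0.798) times the control level (0.505 without the deepest cells) and *Jph1*, a junctophilin that joins the reticulum to the surface membrane, 0.413 (0.235 to 0.701). Of 9 such genes compared, 2 were at least 2-fold higher and 2 lower. *Mylk2*, the kinase of fast regulatory light chains, was also lower at 0.341 (0.189 to 0.585).

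The genes at least 2-fold lower included several of signaling, polyamine synthesis and metal binding. *Mylk4*, a myosin light chain kinase, was at 759 CPM in control and 57.5 in hypothyroid uninjured cells, a ratio of 0.0758 (0.0339 to 0.148), and *Phlda3*, an inhibitor of Akt, was at 961 and 172 CPM. *Amd1*, which makes the decarboxylated precursor for polyamines, was at 989 and 389.7 CPM, a ratio of 0.394 (0.289 to 0.530). The metallothioneins *Mt1* and *Mt2* had ratios of 0.231 and 0.150, and without the top cells 0.358 (0.198 to 0.616) and 0.357, the latter on 4 against 12 UMIs with an interval that included 1 (0.0840 to 1.18). In the full pools 3 of the 6 atrophy and growth genes compared were at least 2-fold lower with none higher (median 0.535), and 2 of 5 without cells over 1% in other-cell markers (median 0.712). Among immediate early and heat shock genes *Egr1* was at 0.0947 and *Jun* at 0.299 of the control level. *Hspb7*, a small heat shock protein of muscle, was 2.06 (1.32 to 3.28) times higher (1.91 without the deepest cells and 3.87 without the top cells). In the full pools 2 of 5 were thus lower and 1 higher. Over 10 alternative settings *Egr1* ran from 0.0423 to 0.795, *Jun* from 0.169 to 0.809 and *Hspb7* from 1.14 to 7.15. These 2-fold calls therefore depended on the setting.

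Metabolic genes were close to the whole set. Of 14 glycolysis and glycogen genes 1 was at least 2-fold lower, the pyruvate kinase gene *Pkm* at 0.454 (0.357 to 0.574), and the median was 0.814. Of 16 oxidative genes 1 was lower, the mitochondrial creatine kinase gene *Ckmt2* at 0.487 (0.344 to 0.682), which was 0.517 without cells over 1% in other-cell markers, and the median was 0.874. *Mb*, myoglobin, was 0.570 (0.481 to 0.672) times the control level. Over 10 alternative settings its ratio ran from 0.418 to 1.56, so the direction depended on the setting. *Klf9*, a transcription factor gene induced by thyroid hormone, was at 416 CPM in control and 249 in hypothyroid uninjured cells, 0.599 (0.396 to 0.894) times. It was 0.288 (0.159 to 0.493) without cells over 1% in other-cell markers and 0.391 (0.213 to 0.691) without the top cells. Over 10 alternative settings its ratio ran from 0.141 to 0.945, so its size depended on the setting. *Klf9* was 1 of only 2 of the 16 thyroid hormone genes listed with enough UMIs to compare. All 11 mitochondrially encoded genes compared were above 1, none at 2-fold (median 1.26, and 0.971 in the other cells).

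Markers of other cells moved with this comparison in a few cells. *Acta2*, smooth muscle actin of mural cells, was at 781 CPM in control uninjured cells and all 139 UMIs came from 1 cell. Its ratio was 0.0327. When the deepest cell of each pool was left out, 4 UMIs remained in hypothyroid and 0 in control cells. The bound by a floor of 3 UMIs was then 1.28, with a lower limit of 0.632 and no upper limit, so no direction could be read. *Dcn* had a ratio of 2.46 (1.80 to 3.40), which was 0.654 without the deepest cells and 0.116 without the cells over 1% in other-cell markers. The count of genes at least 2-fold apart was 99, against 80 without the deepest cell of each pool and 83 without the cells over 1%. The *Csrp3*, *Tuba4a*, *Trdn*, *Casq1* and *Pkm* differences kept their direction in both. *Vim*, which encodes the vimentin of mesenchymal cells, was lower, at 0.216 (0.132 to 0.339).

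**Figure D3:**
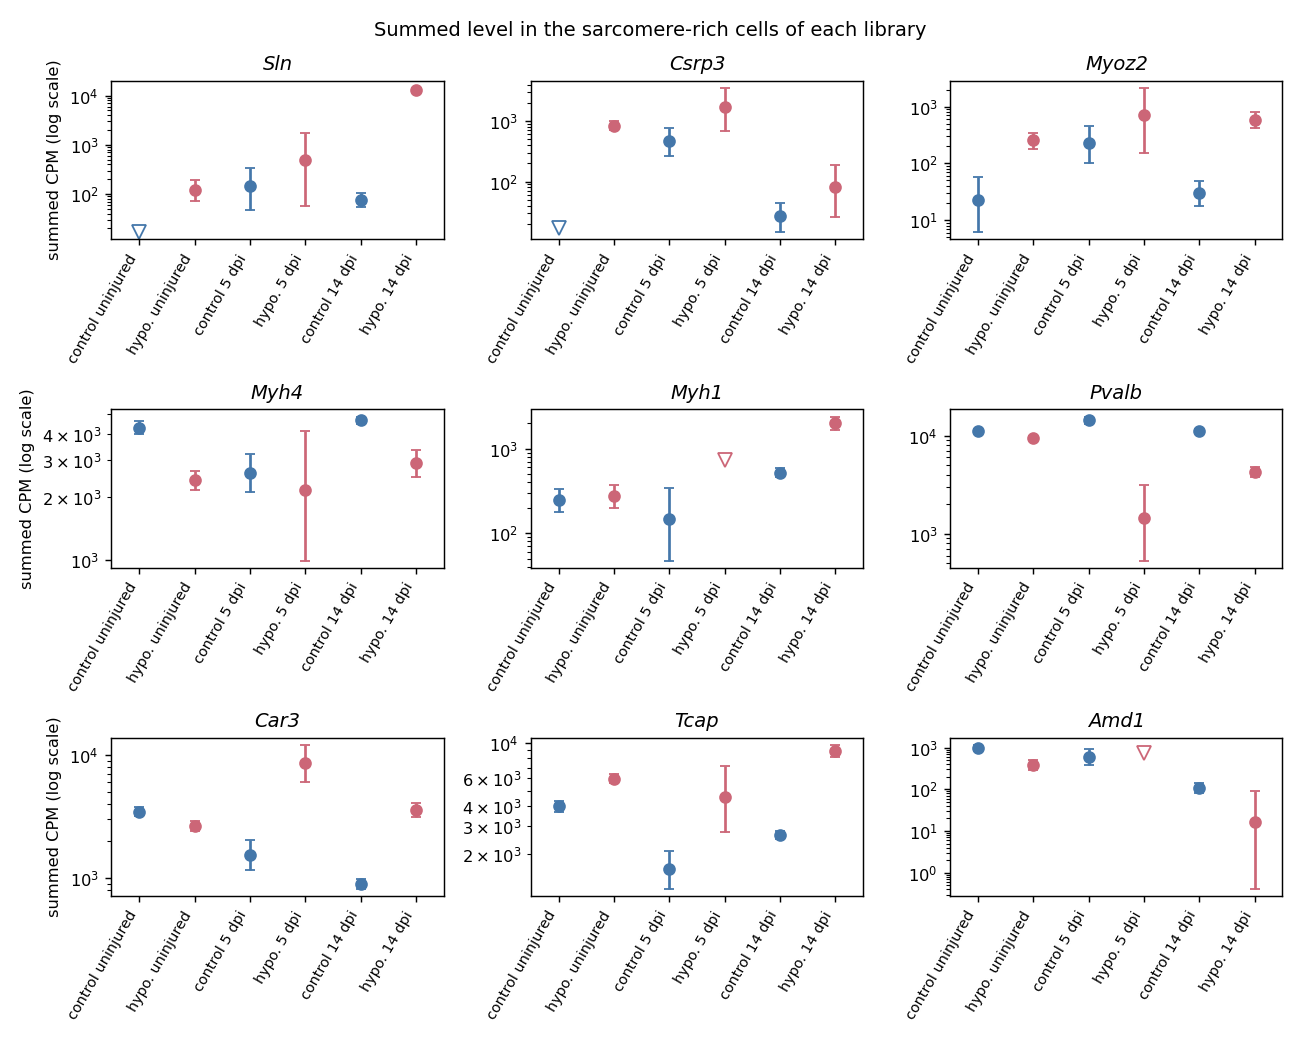
Level in CPM, on a log axis, of 9 transcripts summed over the sarcomere-rich cells of each library, with exact Poisson 95% bars and open triangles at the level of 3 UMIs where none was found. *Sln* stands at 13194 CPM in hypothyroid 14 dpi and at 484 or less elsewhere, and *Csrp3* is absent from control uninjured cells alone.

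At 14 dpi, sarcolipin had the interval farthest above 1, that is the most in favor of the hypothyroid cells. *Sln*, at chr9:53757448-53761844 in mm39, encodes a small peptide that uncouples the calcium pump and is abundant in atria, in slow and developing muscle and in diseased muscle. Its level was 0, 121, 146, 484, 76.3 and 13194 CPM in the order of libraries, with 822 UMIs in hypothyroid 14 dpi and 40 or fewer in each other library. The 14 dpi ratio was 173 (126 to 244). It was detected in 14 of 16 hypothyroid cells (87.5%, 61.7 to 98.4) and in 24 of 150 control cells (16.0%). The cell with most had 338 UMIs, and without the top cell of each pool the ratio was 153. Without the cells over 1% in other-cell markers it was 128. The size of the ratio depended on the cells taken: it was 89.0 with the line at 200000 CPM, 85.9 with cells thinned to 500 UMIs, 67.1 as a mean over cells, 32.2 with the line at 50000 CPM and 17.3 with all columns of each table. Within hypothyroid mice the ratio of 14 dpi to uninjured cells was 109 (69.2 to 181).

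The same transcript was also higher in hypothyroid cells outside the rule at 14 dpi, where 33.4% had a UMI against 3.44% in control cells and the level was 106 against 18.8 CPM, a ratio of 5.63. Median depths of those cells were 6916 UMIs in hypothyroid and 4097.5 in control. With every cell thinned to 500 UMIs, *Sln* was found in 11 of 16 hypothyroid sarcomere-rich cells (68.8%) and 8 of 148 control ones (5.41%), and in 6.37% and 0.700% of the other cells. The share in sarcomere-rich cells was thus above that in cells outside the rule on both diets.

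**Figure D4:**
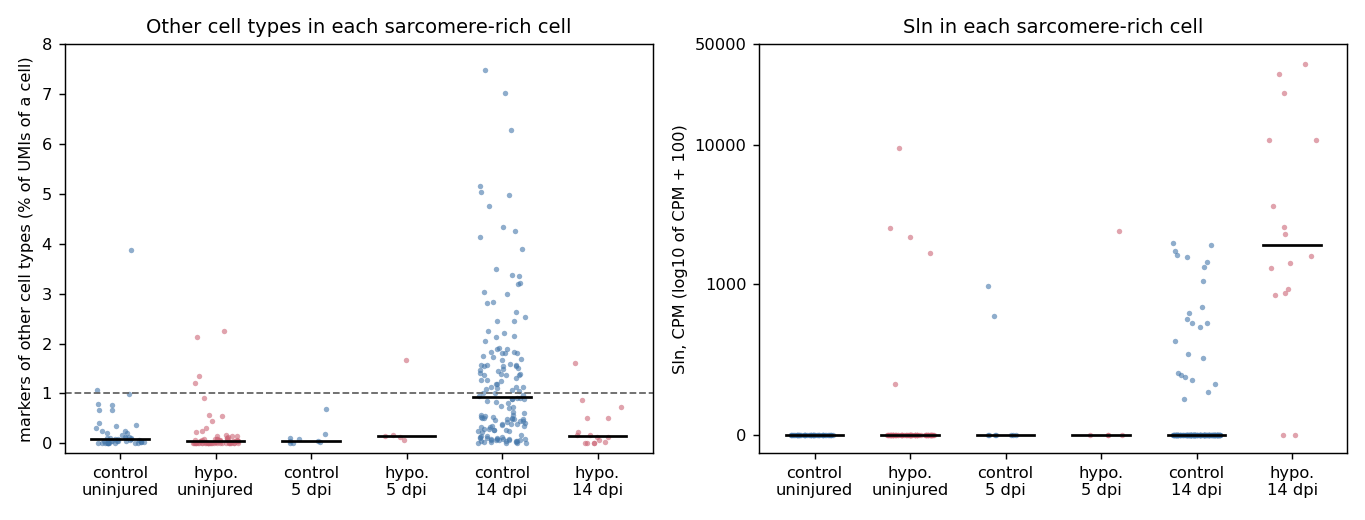
Left, percent of UMIs in markers of other cell types in each sarcomere-rich cell, with the dashed line at 1%; right, *Sln* in each sarcomere-rich cell as log10 of CPM + 100. The cells over 1% lie mostly in control 14 dpi (72 of 150), and 14 of the 16 hypothyroid 14 dpi cells hold *Sln*.

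Among 394 genes compared at 14 dpi, 22 (5.58%) were at least 2-fold higher in hypothyroid cells and 71 (18.0%) at least 2-fold lower, with a median ratio of 1.01. Genes of the extracellular matrix had the intervals farthest below 1, *Mgp* 0.0291 (0.00352 to 0.106, on 2 UMIs in hypothyroid cells), *Col1a1* 0.0319, *Sparc* 0.0522 and *Col3a1* 0.0703, and *Fn1*, with no UMI in hypothyroid cells, was at most 0.0765 times the control level by a floor of 3 UMIs, with an exact upper limit of 0.0946. The collagens are among the fibro-adipogenic markers that were abundant in control 14 dpi cells. Without the cells over 1% in other-cell markers *Col1a1* was 0.118 on 1 UMI (0.00291 to 0.700), *Sparc* 0.359 and *Col3a1* 0.293, and for *Fn1*, with 0 against 17 UMIs, the upper limit was 1.03, so no difference was detectable. The count of genes at least 2-fold apart was then 26 instead of 93, and without the deepest cell of each pool it was 45.

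Of 11 oxidative genes compared at 14 dpi 5 were at least 2-fold higher in hypothyroid cells and none was lower, and the median ratio was 1.63, against 0.491 in the other cells. Once cells over 1% in other-cell markers were left out, 2 of 11 were at least 2-fold higher, *Car3* and *Fabp3*, and the median was 1.33. *Car3*, the carbonic anhydrase of slow and oxidative fibers, was at 3463, 2664, 1544, 8706, 892 and 3595 CPM in the order of libraries, so control 14 dpi was the lowest of the 6. Its 14 dpi ratio was 4.03 (3.42 to 4.73), 3.84 in the other cells, and 2.37 without cells over 1% in other-cell markers. *Fabp3*, a fatty acid carrier, had a ratio of 4.08, but 82 of its 130 hypothyroid UMIs came from 1 cell and without the top cells it was 2.27. *Mb* was at 4430 CPM in hypothyroid and 1762 in control cells, a ratio of 2.51, and 207 of 276 UMIs came from 1 cell, without which the interval of the ratio was 0.773 to 1.28. *Cox6a2* and *Cox8b*, muscle forms of cytochrome oxidase subunits, had ratios of 2.47 and 2.06, without the top cells 2.42 and 2.13, and without cells over 1% in other-cell markers 1.99 (1.72 to 2.29) and 1.52 (1.29 to 1.79). *Mb* was then 1.76 (1.52 to 2.03). The 2-fold calls of *Cox6a2*, *Cox8b* and *Mb* thus depended on those control cells, and that of *Mb* also on 1 hypothyroid cell.

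*Tcap* was at 3991, 5941, 1602, 4595, 2639 and 8908 CPM, and its 14 dpi ratio was 3.38 (3.05 to 3.73), 2.72 without cells over 1% in other-cell markers and 3.05 without the top cells. In cells outside the rule the ratio was 0.509. *Des* had a ratio of 2.62, 2.12 without cells over 1%, and 1.78 without the top cells. *Xirp2*, an actin-binding scaffold protein of striated muscle, was lower at 0.376. Of 7 Z disc and scaffold genes 2 were thus at least 2-fold higher and 1 lower, with a median of 1.08. *Trdn* was at 711 CPM in control and 1380.4 in hypothyroid cells. Of 4 other fast fiber genes none reached 2-fold and 2 lay above 1, and of 12 glycolysis genes none reached 2-fold, with a median of 1.18.

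*Pvalb* was at 11227, 9513, 14304, 1451, 11293 and 4302 CPM in the order of libraries. It was within the rule, and its 14 dpi ratio of 0.381 (0.336 to 0.431) is given as a description beside 0.152 in the other cells. *Acta1* had ratios of 2.35 in sarcomere-rich cells, 1.84 without the top cells, and 0.507 in the others. *Actc1*, cardiac actin, which regenerating fibers use, was at 595 CPM in control and 257 in hypothyroid 14 dpi cells, a ratio of 0.432, or 0.240 without the cells over 1%. *Klf9* had 3 UMIs in hypothyroid cells, a level of 48.2 CPM against 358 in control cells and a ratio of 0.134 (0.0275 to 0.399). Without cells over 1% in other-cell markers it was 0.260 (0.0518 to 0.806), and in the other cells it was 0.772. *Klf9* was thus lower in the hypothyroid pool at both times, by less than 2-fold in the full pools of uninjured muscle. The size of the difference depended on the setting. Over the alternative settings the ratio ran from 0.141 to 0.945 in uninjured muscle and from 0.0670 to 0.828 at 14 dpi.

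**Figure D5:**
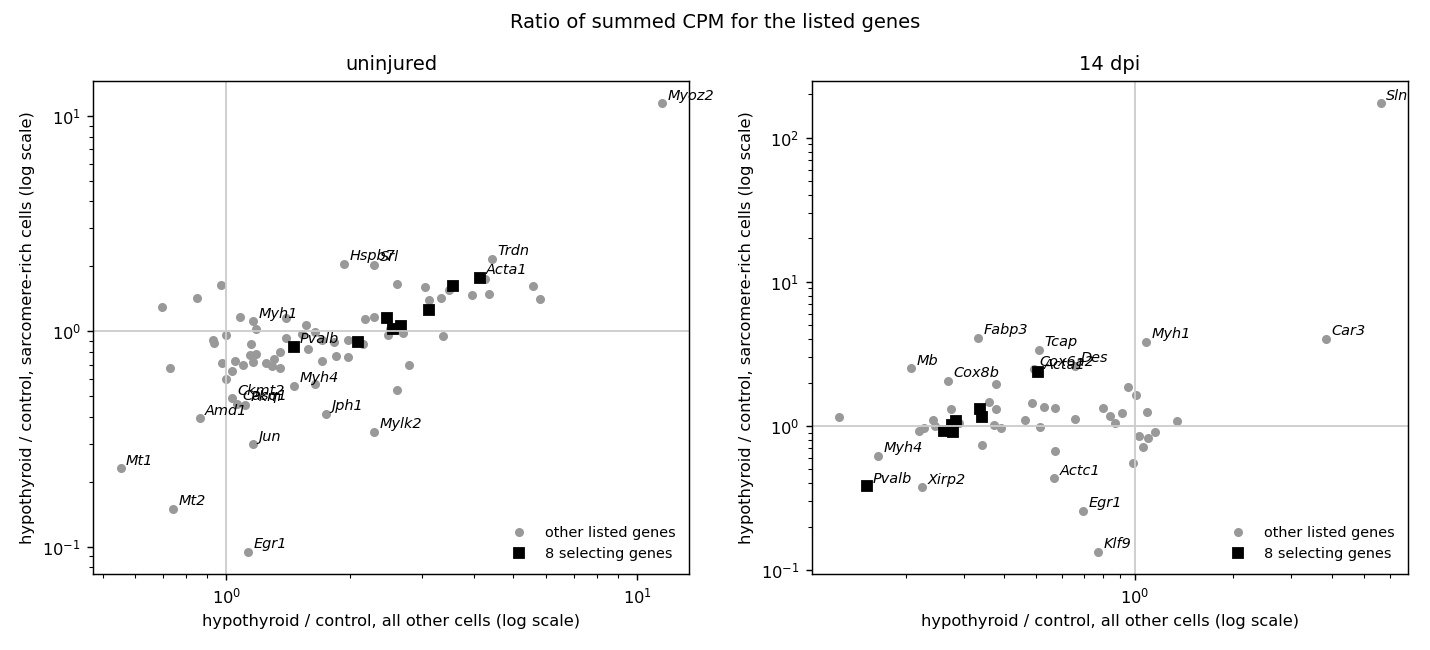
Hypothyroid to control ratio of each listed gene with enough UMIs in sarcomere-rich cells (vertical) against the same ratio in all other cells (horizontal), both on log axes, uninjured and at 14 dpi, with squares for the 8 selecting genes. *Sln* at 14 dpi (173 against 5.63) and *Myoz2* in uninjured muscle (11.4 against 11.5) lie highest, and *Csrp3* in uninjured muscle is left out because control cells had none.

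Control cells at 14 dpi differed from uninjured control cells in 213 (18.9%) of 1125 genes at least 2-fold higher and 123 (10.9%) at least 2-fold lower, median 0.941. The intervals farthest above 1 were those of matrix genes, *Col1a1* at 224 (61.8 to 1850.2), *Col3a1* at 122 and *Col1a2* at 101. *Cilp* and *Col6a3*, also matrix genes, were at least 38.0-fold and 25.8-fold higher. Without the cells over 1% in other-cell markers *Col1a1* was 13.4 (3.45 to 115), *Col3a1* 14.4 (4.69 to 71.8) and *Col1a2* 6.20 (1.89 to 32.1), *Cilp* was at least 1.74-fold higher on 7 UMIs, and the count of genes at least 2-fold apart was 214 instead of 336.

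Muscle genes differed between uninjured and 14 dpi control cells in both directions. *Actc1* was at 141 CPM in uninjured and 595 in 14 dpi control cells, a ratio of 4.23 that was 5.49 without the cells over 1%. *Myl4*, the embryonic and atrial light chain, was absent from uninjured control cells and at 153 CPM at 14 dpi, at least 9.04-fold higher, or at least 4.10-fold without the top cell. These were the 2 of 11 developmental and fusion genes with enough UMIs, and both were at least 2-fold higher. *Amd1* was at 989, 389.7, 612, 0, 109 and 16.1 CPM in the order of libraries, and the control ratio of 14 dpi to uninjured was 0.110 (0.0800 to 0.149), against 0.424 in the other cells. *Mylk4* had a ratio of 0.123, *Rab12*, a small GTPase, 0.194, and *Car3* 0.258 (0.228 to 0.291), which was 0.445 without the cells over 1%. *Amd1*, *Mylk4* and *Phlda3* were therefore lower both in uninjured hypothyroid and in control 14 dpi cells, each against the same control uninjured pool. Of 16 oxidative genes 3 were at least 2-fold lower, *Car3* and the genes *Ckmt2* (0.356) and *Slc25a4* (0.485, the ADP/ATP carrier), and 1 was higher, *Cox7a1* at 2.88, with a median of 0.747. When cells over 1% in other-cell markers were left out, 2 of 16 were higher and 2 lower with a median of 1.04, *Ckmt2* was 0.469 and *Slc25a4* was 0.623, no longer 2-fold lower. None of the 9 Z disc genes was 2-fold higher and 1, *Myot*, was lower at 0.475, or 0.562 without the cells over 1% (median 0.659). Of 16 glycolysis genes 1 was lower (median 0.717), and none was 2-fold apart without the cells over 1%.

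Hypothyroid cells at 14 dpi differed from uninjured hypothyroid cells in 59 (15.2%) of 389 genes at least 2-fold higher and 44 (11.3%) at least 2-fold lower, median 1.03. After *Sln*, the intervals farthest above 1 were those of *Atp5k* at 7.50, *Myh1* at 7.30 (3.55 without the top cells), *Atp5mpl* at 6.34 and *Rpl41* at 5.36. *Atp5k* and *Atp5mpl* encode small subunits of ATP synthase and *Rpl41* a very short ribosomal protein. They were higher at 14 dpi in control cells too, at 3.59, 3.72 and 4.91, and in hypothyroid cells outside the rule, at 3.10, 4.30 and 6.64, so they were not particular to sarcomere-rich cells. Of 13 oxidative genes 3 were at least 2-fold higher and none lower (median 1.57): *Cox7a1* at 4.67, *Cox8b* at 3.29 and *Mb* at 3.21, the last of which was 1.30 (0.975 to 1.73) without the top cells. Ribosomal protein genes were at least 2-fold higher in 13 of 78, beside 15.2% of all genes compared. In the control comparison they were so in 15 of 81, beside 18.9% of all genes. As a group they thus did not stand out from all genes.

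Several fast fiber genes were lower at 14 dpi than in uninjured cells, on both diets. *Actn3* was at 3278, 5724, 2214, 1451, 1922 and 1429 CPM in the order of libraries, highest in hypothyroid uninjured cells, and its ratio of 14 dpi to uninjured was 0.250. *Myoz1* had 0.462, and 2 of the 4 other fast fiber genes compared were at least 2-fold lower with none higher (median 0.631). Of 9 Z disc and scaffold genes 1 was at least 2-fold lower and 3 lay above 1 (median 0.904, against 1.03 over all genes). *Csrp3* was lower at 0.0952 (0.0304 to 0.228). *Lars2*, the mitochondrial leucyl-tRNA synthetase, was at 2923, 4268, 699, 726, 1125 and 915 CPM, so it was lower at all injured times than in either uninjured library. *Sar1b*, a GTPase of the secretory pathway, and *Ybx3*, a cold shock protein that binds RNA, had ratios of 0.239 and 0.342, and 0.309 and 0.344 in control cells.

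At 5 dpi the 9 control and 5 hypothyroid cells gave values but no comparison by gene count. *Myh4* was found in both libraries, at 2622 and 2177 CPM. *Car3* was at 1544 and 8706 CPM and *Cox6a2* at 1777 and 5562. *Myl4* was at 1369 CPM in control cells, with 38 of 47 UMIs in 1 cell, and 242 in hypothyroid cells. *Csrp3* rested on 16 UMIs in 3 control cells and on 7 UMIs in 1 hypothyroid cell. In these pools new fibers and surviving old ones cannot be told apart.

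Genes of differentiation and fusion were barely seen in sarcomere-rich cells. *Myog*, the transcription factor of differentiating myoblasts, had 2, 1, 0, 0, 2 and 3 UMIs in the order of libraries. *Mymk* (myomaker) had 0, 0, 1, 0, 8 and 0, and *Mymx* (myomixer) had 2 in control 14 dpi and 0 elsewhere. None of these counts allowed a comparison between diets. Endplate and denervation genes had too few UMIs in every comparison.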

How the data were processed

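Single-cell suspensions of TAM, 1 library per diet and time with 3 mice pooled, were captured with the 10x 3′ V3 kit. The authors aligned reads to mm39 with Cell Ranger and processed them in Partek Flow (versions are not printed here), and deposited log2(CPM + 1) values per gene and cell for 12436 genes. The 9062 of 20269 columns in later runs were not used. CPM was taken as 2 to the power of the deposited log2 value, minus 1, and the most frequent value above 0 of a cell was taken as 1 UMI. Of all values above 0, 99.934% lay within 0.1 of a whole UMI. Doublets were not removed. Recovered UMIs were summed over member cells, and ratios of CPM given with exact binomial intervals, for genes with at least 20 UMIs expected in the smaller pool at a common level. Where a pool had 0 UMIs, 3 UMIs gave the bound. With 1 library per group no test, pseudocount or p-value was used. The smallest pools, 4135 UMIs at hypothyroid 5 dpi and 34327 at control 5 dpi, gave the least precision.

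Members and gene lists were chosen with earlier results of these data known. Genes were named from 13 lists of muscle functions and, per comparison, as the 5 each way whose interval lay farthest from 1 of those with 100 UMIs or more in the pool where they were higher. *Ankrd2*, and the matrix and mural markers, were in part named after their values were seen. Promoter sequences were taken from RefSeq on GRCm38.p6, another build than the files', and gene coordinates from the files. Alternatives changed the line (50000 or 200000 CPM), the columns used, the UMI unit, the filter, the fold, the total, the depth (thinning to 500 UMIs) and the cells left out. Scripts were tested on simulated data and used Python 3.11.15, numpy 2.4.6, scipy 1.17.1, pandas 2.3.3 and matplotlib 3.10.9.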

Additional observations from a re-analysis of the deposited data

Results flagged for a closer look

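The share of sarcomere-rich cells was 3.23 times as high in hypothyroid as in control muscle before injury and 0.213 times as high at 14 dpi, and the 2 intervals lay on opposite sides of 1. The difference between these ratios was not tested, since each rests on 1 library per diet. *Dcn* in the sarcomere-rich cells likewise had a ratio of 2.46 in uninjured muscle and 0.196 at 14 dpi, also not tested, and the first value turned under 1 without a few cells.

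Cells above 100000 CPM in the 8 transcripts were also found in the later runs of columns that were not assigned to a group, 259 of 9062 in all. They were 0.868% of the second run of the control uninjured file and 0.568% of that of the hypothyroid uninjured file, and all columns of both of those runs were also found in the first run of another file. They were 3.83% of the second run of the control 5 dpi file, 15.5% and 0.185% of runs 2 and 3 of the hypothyroid 5 dpi file, and 3.99% and 1.33% of runs 2 and 3 of the control 14 dpi file. The condition of those cells is not known.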

How the results depend on the processing

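With the line at 200000 CPM, the share ratios hypothyroid over control were 7.42 (uninjured, 3.23 in the main setting), 2.25 (5 dpi, 0.626 in the main setting, both intervals including 1) and 0.513 (14 dpi, 0.213 in the main setting), and without cells over 1% in other-cell markers the 14 dpi ratio was 0.384. Counts of genes at least 2-fold apart, in the order uninjured, 14 dpi, control over time and hypothyroid over time (99, 93, 336 and 103), changed most with depth and the filter: 695, 547, 1391 and 446 at an expected count of 5 UMIs, 4905, 8012, 6201 and 5702 with no filter, and 10, 4, 42 and 7 after thinning to 500 UMIs, where fewer genes could be compared. They were 30, 59, 167 and 39 at 3-fold. Taking the smallest value above 0 as 1 UMI gave 244, 155, 679 and 175, which inflates counts in cells that hold fractional values by construction. With the line at 200000 CPM they were 56, 20, 138 and 54, and at 50000 CPM 167, 154 and 354 (control over time stayed within 1.5 times). Without cells over 1% they were 26 at 14 dpi and 214 for control over time. Without the deepest cell of each library, an alternative chosen after seeing the data, they were 45 at 14 dpi and 68 for hypothyroid over time. The share of *Myh4* cells was 100% (line at 200000) and 75.0% (thinned) in control uninjured, 54.9% (thinned) in hypothyroid uninjured, and 42.6% (line at 50000), 91.4% (line at 200000) and 47.3% (thinned) in control 14 dpi. Of 91 such alternatives 50 stayed within the main interval, or within 1.5 times for counts, and 41 moved. None turned a share ratio whose main interval left out 1, and the 5 dpi ratio, whose interval included 1, crossed 1 at 200000 CPM.

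Only a ratio at least 2-fold apart with its interval off 1 could be counted as turned, and the gene ratios examined included others. Of 1489 alternatives for 151 gene ratios 15 turned the direction of a 2-fold call, in 11 ratios. In uninjured muscle these were *Dcn* (0.116 without cells over 1%, 0.654 without the deepest cells) and *Acta2* (1.28 without the deepest cells). At 14 dpi it was *Mgp* (1.28 with the line at 50000). In control over time they were *Acta2* (1.28 without the deepest cells), *Fos* (0.843 at 200000, 0.924 without cells over 1%), *Mt2* (0.495 at 200000, 0.940 without cells over 1%), *Myh1* (0.631 with all columns, which include cells of unknown condition), *Igf1* (0.993 without cells over 1%), *Mgp* (0.455 without cells over 1%) and *Trim63* (1.14 thinned). In hypothyroid over time it was *Myoz2* (0.403 thinned, 0.690 as the mean over cells). Ratios under 2-fold that crossed 1 were not counted, among them *Myh4* at 14 dpi (0.622, and 1.31 thinned) and *Mb* in uninjured muscle (0.570, and up to 1.56). Beyond the cells left out, the cause of these turns was not tested. No paired analysis was possible because each group is 1 library. Pools of 5, 9 and 16 cells limit every value from 5 dpi and from hypothyroid 14 dpi.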
